A study of Mus musculus with 6 samples.

Results

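Dlx1, Dlx2, Dlx5, Dlx6, Lhx6, Sox6, Satb1 and Maf encode transcription factors of the cortical interneuron lineage. They were picked by gene symbol, and all 8 were found among the 24972 genes of a table of RNA levels in mouse cortex at postnatal day 7 (P7). The table holds 3 libraries labelled wildtype, from Zmiz1 f/f mice that carry no Cre, and 3 labelled Zmiz1-KO, from Zmiz1 f/f mice with Emx1Cre. Both groups therefore share the floxed Zmiz1 alleles and differ in the Cre. The labels give neither the sex nor the litter of the mice, and they do not say if a library holds the RNA of 1 animal or of several. A note in the labels speaks of progenitor cells, whereas the extracted material is given as cortex. Emx1Cre is active in the progenitors of cortical excitatory neurons and of cortical glia.

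Cortical interneurons are born outside the cortex, in the ganglionic eminences of the ventral forebrain, and reach it by tangential migration. They are outside the lineage in which Emx1 drives Cre. DLX1 and DLX2 act early in progenitors and young neurons of the ganglionic eminences, where they promote the GABAergic fate and migration, and DLX5 and DLX6 act after them. LHX6 follows in neurons of the medial ganglionic eminence, and SOX6 and SATB1 act downstream of LHX6 in the somatostatin and parvalbumin interneurons that descend from it. MAF is a further regulator of the same lineage. Other cells of the cortex also express some of these genes: Sox6 is expressed in oligodendrocyte precursors, Satb1 in excitatory neurons and Maf in microglia. In whole tissue, fewer cells of a type and less RNA per cell cannot be told apart.

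The table gives DESeq2-normalized counts, whose sums of 32661979 to 33239707 per library follow the authors' normalization. The median of the lowest non-zero values of a library was taken as the worth of 1 counted unit. It gave 15494888 to 17858395 as an approximate number of units, since that worth differs slightly between genes. Whether a unit is a single read or a pair of reads was not tested. Zmiz1, the targeted gene, was at 7836 ± 339 normalized counts (SD, n = 3) in wildtype and at 9794 ± 143 in libraries labelled Zmiz1-KO, and it rose by 0.32 on the log2 scale (limma, adjusted p = 0.00125). The table holds 1 value per gene and does not resolve the floxed exons. Because Zmiz1 was higher, not lower, in libraries labelled Zmiz1-KO, all directions given here are those of the labels. Emx1, whose control drives the Cre, was at 763 ± 67.6 in wildtype and 529 ± 55.1 in libraries labelled Zmiz1-KO (log2 fold change -0.53, limma, adjusted p = 0.0150), and its adjusted p was 0.0628 to 0.0871 when wildtype replicate 1, wildtype replicate 3 or Zmiz1-KO replicate 1 was left out. Cortical excitatory neuron markers were present in every library. Slc17a7, the vesicular glutamate transporter of these neurons, was at 18675 to 20879 in wildtype and 19188 to 20218 in libraries labelled Zmiz1-KO.

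None of the 8 transcription factors passed the threshold of an adjusted p of 0.05 (limma, Benjamini-Hochberg over 15800 genes). Over all tested genes 65 passed it, or 0.411%, and limma-voom also called none of the 8. At an unadjusted p under 0.05, 5 of the 8 had a difference (Dlx2, Dlx5, Dlx6, Lhx6 and Satb1), beside 11.0% of all tested genes. All 3 values of the libraries labelled Zmiz1-KO lay above all 3 wildtype values for Dlx5, Dlx6 and Lhx6, beside 8.10% of all tested genes, and below them for Satb1, beside 8.16%. For these 4 genes an exact permutation test over libraries gave p = 0.1, the smallest that 3 against 3 can give. The median log2 fold change of the 8 was 0.17, against -0.0002 over all tested genes.

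**Figure D1:**
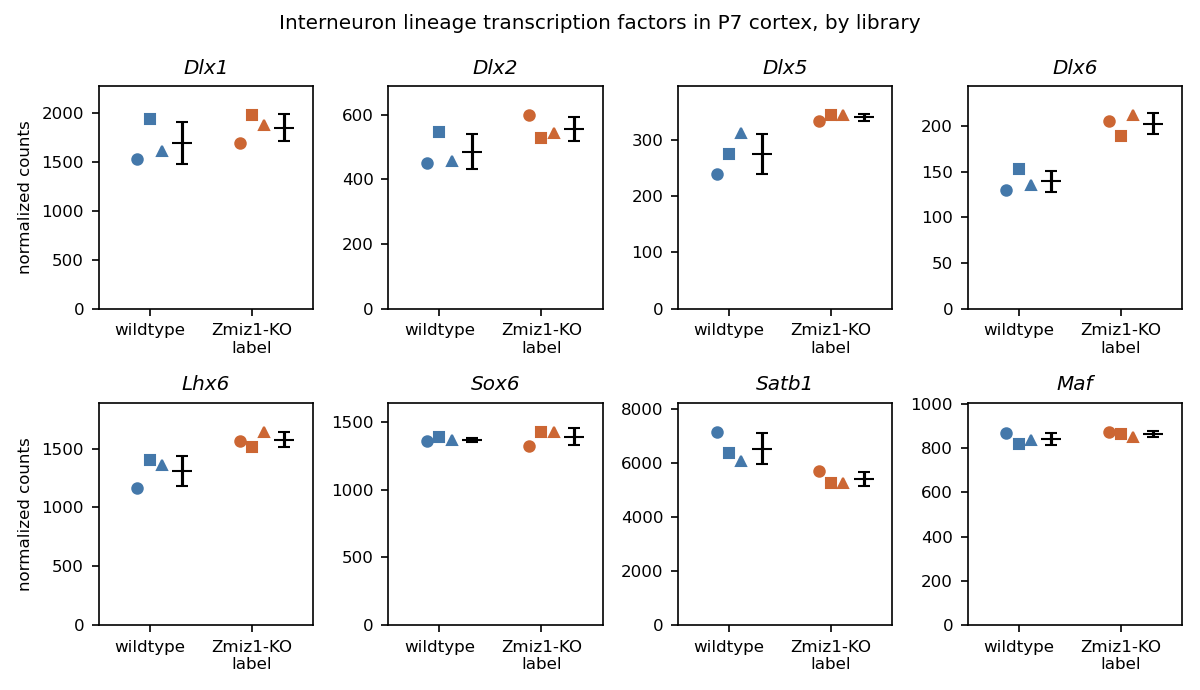
Normalized counts of the 8 transcription factors in each of the 3 wildtype and 3 Zmiz1-KO labelled libraries, with the mean and SD of each group. The groups do not overlap for Dlx5, Dlx6, Lhx6 and Satb1, and they overlap for Dlx1, Dlx2, Sox6 and Maf.

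The 4 Dlx genes lie in 2 pairs, each transcribed towards the other gene of the pair. In GRCm38 coordinates, Dlx1 is at chr2:71528113-71533981 on the plus strand and Dlx2 at chr2:71543408-71546754 on the minus strand, 9426 bases apart. Dlx6 is at chr6:6863334-6868568 on the plus strand and Dlx5 at chr6:6877805-6882085 on the minus strand, 9236 bases apart. Both pairs carry antisense RNAs. Exons of Dlx1as cover 335 bases, or 6.21%, of the exons of Dlx1, and Dlx6 lies in an intron of Dlx6os1 with no shared exon base. The exons of Dlx6os2 cover 4.38% of those of Dlx6. The library kit does not keep the strand, so reads of Dlx1 and Dlx1as in their shared bases cannot be told apart.

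**Figure D2:**
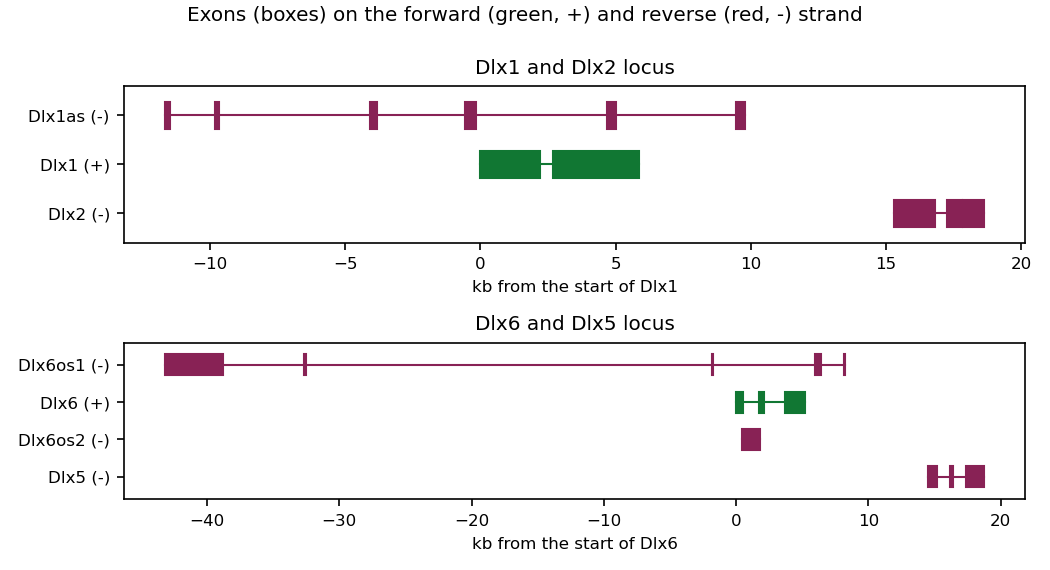
Maps of the Dlx1 and Dlx2 locus and the Dlx6 and Dlx5 locus, with exons as boxes, introns as lines and the strand of each gene and antisense gene by color, in kilobases from the starts of Dlx1 and of Dlx6. The members of each pair point towards each other across 9426 and 9236 bases.

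The start region of Dlx2 is shown because it lies outside all annotated exons and so could be read as promoter sequence alone. RefSeq (GRCm38.p6) gave the 250 bases before a start site for 5 of the 8 genes, in 16 windows. The window of Dlx2, chr2:71546755-71547004 on the minus strand, held 24 CG dinucleotides, against a median of 6 and quartiles of 2 and 16 over 32851 promoter windows of that length. It held none of 4 short motifs searched on both strands, the homeodomain core TAATTA (in 4.84% of all windows), the TATA box TATAAA (12.4%), TGCTGA of the MAF recognition element (16.1%) and ACAATG of SOX proteins (10.7%), and so no base is in capitals.
Dlx2 window: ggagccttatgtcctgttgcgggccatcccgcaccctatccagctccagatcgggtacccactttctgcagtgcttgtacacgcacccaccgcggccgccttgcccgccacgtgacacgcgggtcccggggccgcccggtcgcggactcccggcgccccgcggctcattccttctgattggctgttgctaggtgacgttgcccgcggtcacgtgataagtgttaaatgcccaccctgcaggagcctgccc

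Dlx1 and Dlx2, which are expressed from progenitors onward, had overlapping groups. Dlx1 was at 1530, 1932 and 1606 normalized counts in wildtype and at 1695, 1977 and 1876 in libraries labelled Zmiz1-KO (log2 fold change 0.13, SE 0.089, limma, adjusted p = 0.642). The lowest 2 wildtype libraries lay below all 3 of the other group and the highest wildtype library lay between its values. Without wildtype replicate 1 the log2 fold change of Dlx1 was 0.07, and without wildtype replicate 2 it was 0.24. Dlx2 was at 451, 547 and 457 in wildtype and 599, 526 and 542 in libraries labelled Zmiz1-KO, where a single wildtype library lay above 2 of the other group (log2 fold change 0.20, SE 0.092, adjusted p = 0.444). Its 95% interval ran from 0.004 to 0.39.

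Dlx5 and Dlx6, which are turned on after Dlx1 and Dlx2 as neurons leave the progenitor state, did not overlap between groups. Dlx5 was at 239, 275 and 312 in wildtype and at 334, 344 and 345 in libraries labelled Zmiz1-KO. The SD over the 3 latter values was 6.13, against 36.4 in wildtype, whose highest library stayed below the other group. The log2 fold change was 0.32 (SE 0.11, limma, adjusted p = 0.288, unadjusted p = 0.0115). Dlx6 was at 131, 153 and 136 in wildtype and at 206, 190 and 212 in libraries labelled Zmiz1-KO, or 140 ± 11.7 against 203 ± 11.6 (SD, n = 3). Its mean was 1.45 times that of wildtype, the largest ratio among the 8 genes, with a log2 fold change of 0.54 (SE 0.13, 95% interval 0.25 to 0.82, adjusted p = 0.123).

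The antisense partners did not pass the test either. Dlx1as was at 1417, 1652 and 1560 in wildtype and at 1814, 1597 and 1898 in libraries labelled Zmiz1-KO, with overlapping groups (log2 fold change 0.20, SE 0.071, adjusted p = 0.310). Dlx6os1, also known as Evf2, was at 421, 586 and 630 in wildtype and at 649, 603 and 597 in the other group (log2 fold change 0.20, SE 0.13, adjusted p = 0.649). Without wildtype replicate 1 its log2 fold change was 0.02, and without wildtype replicate 3 it was 0.31. Of 11 related genes (paralogues of the Dlx, Sox and Maf members and RNAs of the Dlx loci), 7 passed the filter on low values and none was called. At an unadjusted p under 0.05 (limma), 2 of the 7 had a difference (Dlx1as and Sox5), beside 11.0% of all tested genes. The 4 genes below the filter were Dlx3, Dlx4, Dlx6os2 and Mafa. Of the 7, Maff, a small MAF protein, had the largest positive log2 fold change (0.27, adjusted p = 0.805, but -0.07 without wildtype replicate 2) and Sox5, the partner of SOX6 in the SoxD family, the largest negative one (-0.16, adjusted p = 0.409, -0.09 without wildtype replicate 1 and -0.10 without Zmiz1-KO replicate 3). Mafk, another small MAF protein, followed at -0.12 (adjusted p = 0.744, -0.02 without wildtype replicate 2). All 3 had overlapping groups.

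Lhx6 is at chr2:36081953-36105408 on the minus strand and has more than 1 start site. The windows of 2 of its start sites are shown because they lie outside annotated exons and differ in CG content. The outer window, chr2:36105409-36105658, held 14 CG dinucleotides and none of the 4 motifs. The inner window, chr2:36104061-36104310, held 7 CG dinucleotides and 1 match to ACAATG, read on the other strand as CATTGT and marked in capitals.
Lhx6 outer window: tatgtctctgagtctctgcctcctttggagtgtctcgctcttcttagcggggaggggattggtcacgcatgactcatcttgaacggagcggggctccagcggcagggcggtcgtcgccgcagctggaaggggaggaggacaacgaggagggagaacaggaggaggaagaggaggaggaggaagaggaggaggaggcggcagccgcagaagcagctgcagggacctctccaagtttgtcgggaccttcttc
Lhx6 inner window: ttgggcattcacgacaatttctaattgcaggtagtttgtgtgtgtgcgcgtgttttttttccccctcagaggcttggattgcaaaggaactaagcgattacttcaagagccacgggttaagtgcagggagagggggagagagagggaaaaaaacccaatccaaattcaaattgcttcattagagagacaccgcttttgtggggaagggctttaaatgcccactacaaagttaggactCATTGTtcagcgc

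Lhx6, which marks interneurons of the medial ganglionic eminence, was at 1168, 1407 and 1361 normalized counts in wildtype and at 1566, 1518 and 1646 in libraries labelled Zmiz1-KO. The groups did not overlap, and the lowest of the 6 libraries was wildtype replicate 1. Means were 1312 ± 127 and 1576 ± 64.5 (SD, n = 3), a log2 fold change of 0.27 (SE 0.068, 95% interval 0.13 to 0.41) with an unadjusted p of 0.00109 and an adjusted p of 0.123 (limma). Without wildtype replicate 1 the log2 fold change was 0.19.

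Sox6 and Maf had the smallest log2 fold changes of the 8 genes. Sox6 (chr7:115470872-116038796, minus strand) was at 1359, 1387 and 1366 in wildtype and at 1323, 1430 and 1426 in libraries labelled Zmiz1-KO. Its wildtype values had a mean of 1371 and an SD of 14.8, the lowest and highest of all 6 values were both in the other group, and the log2 fold change was 0.02 (95% interval -0.09 to 0.14, limma, adjusted p = 0.927). With a library left out it ran from 0.003 to 0.06. Oligodendrocyte precursors also express Sox6, and summed levels of 8 markers of these cells were 18287 to 19226 in wildtype and 16302 to 16772 in libraries labelled Zmiz1-KO. Of these markers 1 was called, Olig1 (log2 fold change -0.32, adjusted p = 0.00173), 6 lay below 0 and 2 above. An unadjusted p under 0.05 (limma) was found for 5 of the 8, beside 11.0% of all tested genes. Groups did not overlap for 4 that were lower, beside 8.16% of all tested genes, and for 1 that was higher, beside 8.10%. The part of oligodendrocyte precursors in the level of Sox6 was not tested.

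Maf (chr8:115682942-115707794, minus strand) was at 869, 818 and 836 in wildtype and at 875, 866 and 848 in libraries labelled Zmiz1-KO (log2 fold change 0.04, 95% interval -0.10 to 0.17, adjusted p = 0.889), and with a library left out the log2 fold change ran from 0.02 to 0.06. All 6 values lay between 818 and 875, and the groups overlapped. The antisense gene Gm15655 lies with all of its exon bases inside exons of Maf, of which it covers 5.34%. Microglia express Maf, and the sum of 10 microglia markers was 5454 to 5842 in wildtype and 5485 to 5694 in libraries labelled Zmiz1-KO. None of the 10 was called by limma and 2 had an unadjusted p under 0.05, beside 11.0% of all tested genes.

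Satb1 (chr17:51736187-51833290, minus strand) encodes a chromatin organizer required by somatostatin interneurons. It was at 7174, 6364 and 6076 in wildtype and at 5717, 5278 and 5256 in libraries labelled Zmiz1-KO. All 3 values of the latter lay below all 3 of wildtype, and wildtype replicate 1 was the highest of the 6. The means of 6538 ± 569 and 5417 ± 260 (SD, n = 3) gave a ratio of 0.829 and a log2 fold change of -0.27 (SE 0.058, 95% interval -0.40 to -0.14). With an unadjusted p of 0.000542 the adjusted p was 0.0932 (limma), the lowest of the 8 genes. Without wildtype replicate 3 it was 0.0356, past the threshold, and without the other libraries in turn it reached at most 0.412.

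Satb1 is also expressed in cortical excitatory neurons. Of 8 markers of these cells, all lay at or below a log2 fold change of 0. An unadjusted p under 0.05 (limma) was found for 3, beside 11.0% of all tested genes. Groups did not overlap for 3, all lower, beside 8.16%. The 2 called were Emx1 (given above) and Rorb, a layer 4 marker (log2 fold change -0.43, adjusted p = 0.00856, but 0.0975 without Zmiz1-KO replicate 3). Emx1 is also the gene whose control drives the Cre, which differs between the groups. Its level therefore cannot be read as that of these cells alone. The summed level of the 8 markers was 37138 to 42007 in wildtype and 36292 to 38189 in libraries labelled Zmiz1-KO. The median log2 fold change of the list was -0.12. The part of excitatory neurons in the level of Satb1 was not tested.

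**Figure D3:**
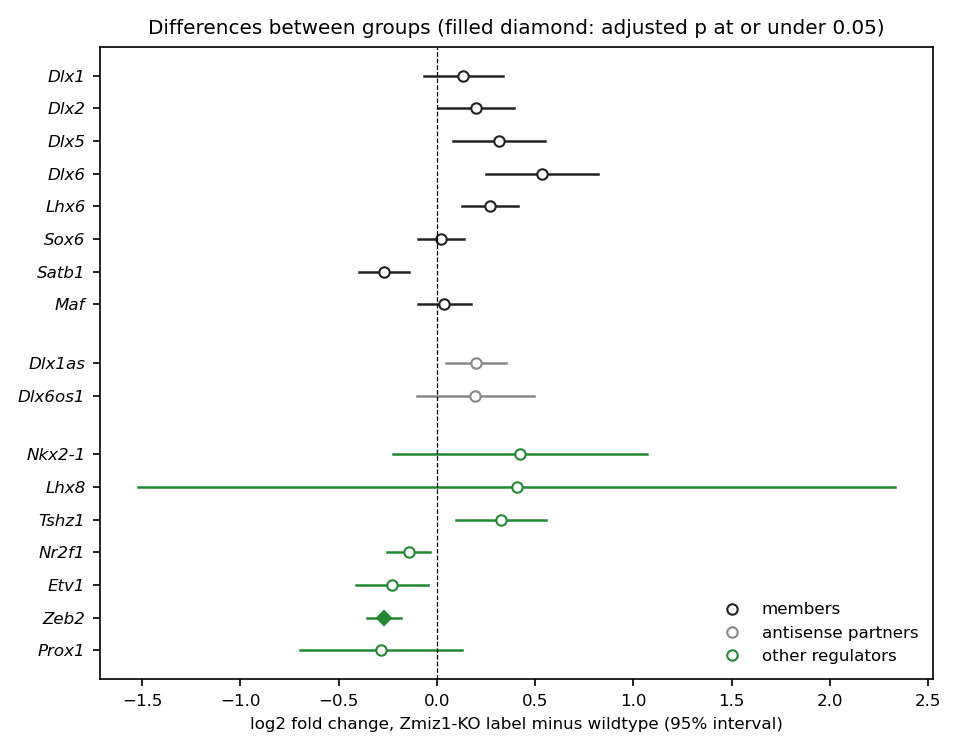
Log2 fold changes with 95% intervals from limma, the libraries labelled Zmiz1-KO minus wildtype, of the 8 transcription factors (black), Dlx1as and Dlx6os1 (grey) and 7 other regulators of the lineage that are named in the text (green). Among the 8, Dlx6 has the largest value, 0.54, and Satb1 the only negative one, -0.27, and the filled diamond marks Zeb2, the only gene shown with an adjusted p at or under 0.05.

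Per kilobase of the principal transcript, the order of levels in wildtype was Satb1 (1047 ± 91.2 normalized counts per kb, SD, n = 3), Dlx1 (411 ± 51.9), Lhx6 (392 ± 38.0), Dlx2 (196 ± 21.6), Dlx5 (193 ± 25.6), Sox6 (167 ± 1.80), Maf (132 ± 4.10) and Dlx6 (63.0 ± 5.29). Dlx1 and Lhx6 had overlapping ranges, as did Dlx2 and Dlx5, and the lowest Dlx5 library lay just under the highest Sox6 library. In the libraries labelled Zmiz1-KO the order was Satb1 (868 ± 41.7), Lhx6 (471 ± 19.3), Dlx1 (450 ± 34.8), Dlx5 (240 ± 4.31), Dlx2 (225 ± 15.4), Sox6 (169 ± 7.40), Maf (136 ± 2.16) and Dlx6 (91.5 ± 5.23). The ranges of Lhx6 and Dlx1, and those of Dlx5 and Dlx2, overlapped in this group too. With the union of all annotated exons as the length, Satb1, which has 19.0 kb of them, came after Dlx1 (343) and Lhx6 (328) in libraries labelled Zmiz1-KO, and Maf before Sox6.

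**Figure D4:**
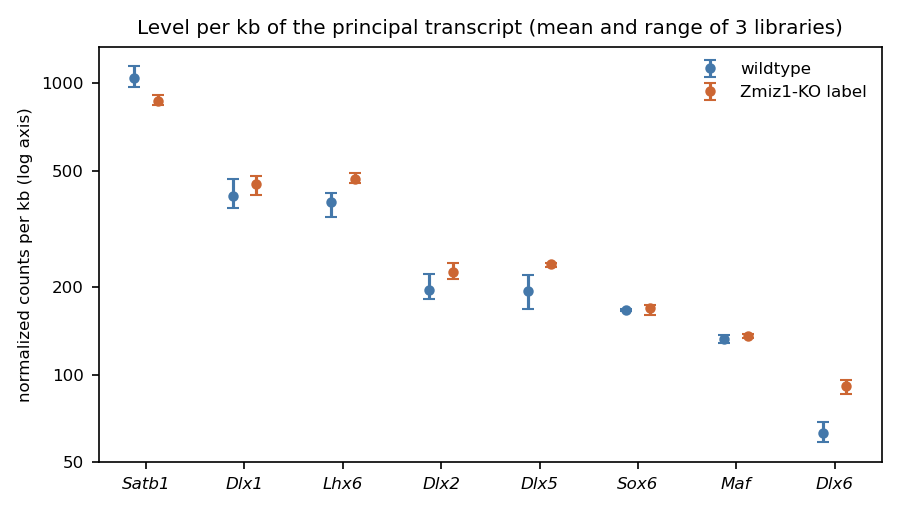
Normalized counts per kilobase of the principal transcript for the 8 transcription factors on a log axis, with the mean (point) and the range of the 3 libraries (bar) of each group. Satb1 is highest and Dlx6 lowest in both groups. Dlx1 and Lhx6, like Dlx2 and Dlx5, have overlapping ranges in both.

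Across libraries, Dlx1, Dlx2, Dlx5, Dlx6 and Lhx6 were all lowest in wildtype replicate 1, and Satb1 was highest in it. The mean deviation of the 5 genes from their average over the 6 libraries was -0.28, -0.02 and -0.13 on the log2 scale in wildtype and 0.14, 0.12 and 0.17 in libraries labelled Zmiz1-KO. All 5 genes were measured in the same 6 libraries and are not independent of each other. Markers of striatal projection neurons, which also descend from Dlx-expressing progenitors, were also lowest, by their sum, in wildtype replicate 1, while the order of the other libraries differed. All 12 had a log2 fold change above 0, with a median of 0.37, and for 7 the groups did not overlap, all 7 higher in libraries labelled Zmiz1-KO, beside 8.10% of all tested genes. Their sum was 16406, 20882 and 21537 in wildtype and 24407, 26031 and 23229 in libraries labelled Zmiz1-KO, and no marker was at 0.

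Of the striatal markers 1 passed the threshold, Pde10a, a phosphodiesterase of medium spiny neurons (4942 ± 214 against 6381 ± 448, log2 fold change 0.37, limma, adjusted p = 0.00303). The largest log2 fold changes were those of Isl1 (0.65, adjusted p = 0.739), at 78.4, 233 and 236 in wildtype and 250, 252 and 263 in the other group and with a log2 fold change of 0.12 without wildtype replicate 1, and Drd2 (0.50, adjusted p = 0.216, 0.33 without wildtype replicate 1). The striatum borders the cortex in dissection, and the part of striatal cells in the levels of the 5 genes was not tested. Olfactory bulb markers, of which 0 of 5 were called by limma and 0 had an unadjusted p under 0.05, summed to 1414 to 1582 in wildtype and 1372 to 1765 in libraries labelled Zmiz1-KO.

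**Figure D5:**
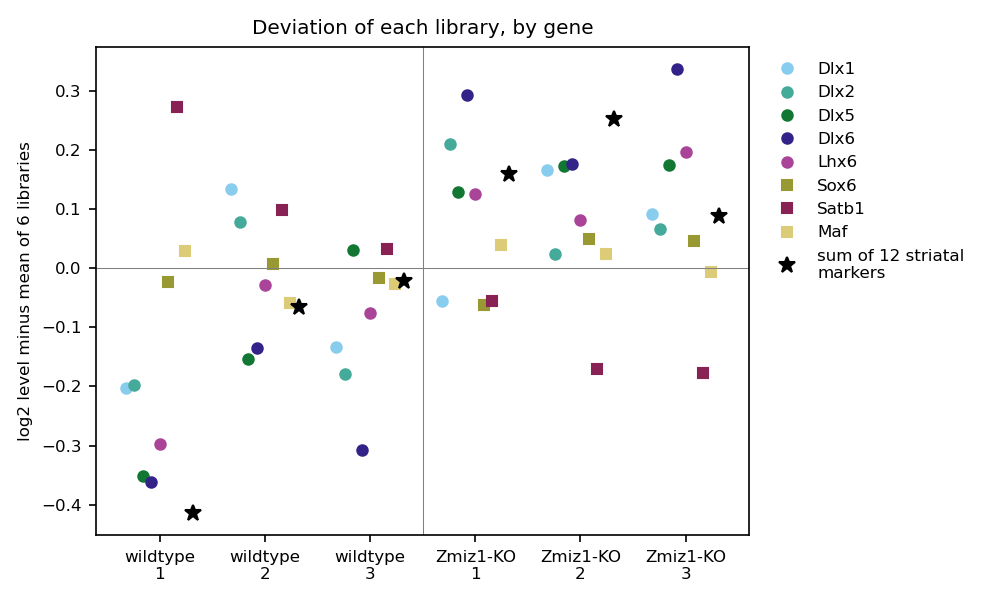
Deviation of each gene from its mean over the 6 libraries, on the log2 scale, by library, with the sum of 12 striatal markers as stars. Wildtype replicate 1 is lowest for the 5 genes Dlx1, Dlx2, Dlx5, Dlx6 and Lhx6 and for the striatal sum, and highest for Satb1.

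Other regulators of the interneuron lineage were compared as a list of 19 genes, all tested. Zeb2, a zinc finger factor that steers medial ganglionic eminence cells to the cortical interneuron fate and is widely expressed in other cells of the cortex, fell from 5895 ± 81.6 to 4894 ± 181 (log2 fold change -0.27, SE 0.041, adjusted p = 0.00542). It was the only one of the 19 called, lower in all 3 libraries labelled Zmiz1-KO (4818, 5101 and 4764) than in all 3 of wildtype (5813, 5894 and 5976). Without Zmiz1-KO replicate 1 its adjusted p was 0.0532 and without Zmiz1-KO replicate 3 it was 0.0850, so that 0 of the 19 were then called. The list was otherwise mixed, with 11 log2 fold changes above 0 and 8 below and a median of 0.02. Nkx2-1, which specifies the medial ganglionic eminence upstream of Lhx6, was at 0.42 (adjusted p = 0.654, 0.10 without wildtype replicate 1), and Lhx8, a LIM factor of the ventral forebrain, at 0.41 (adjusted p = 0.902), both with overlapping groups. Lhx8 was at 27.9, 147 and 88.1 in wildtype, and without wildtype replicate 1 its value was -0.26. Prox1, a factor of caudal ganglionic eminence interneurons, was at -0.29 (adjusted p = 0.610), and at -0.15 without wildtype replicate 2.

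Groups did not overlap for 2 of the 19 that were higher, beside 8.10% of all tested genes, and for 2 that were lower, beside 8.16%. Among these were Tshz1, which was higher, and Nr2f1, which was lower, and both are named after their values were seen. Which cells of the tissue carried the differences in the 19 genes was not tested. Tshz1, a zinc finger factor of the lateral ganglionic eminence, had a log2 fold change of 0.32 (adjusted p = 0.280, but 0.00705 without wildtype replicate 2) and Nr2f1, also known as Coup-TFI, one of -0.14 (adjusted p = 0.283, and -0.09 as the log2 fold change without Zmiz1-KO replicate 2).

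Genes that mark the GABAergic identity and migration of interneurons were taken as the downstream group. Their sum, like that of the striatal markers, was lowest in wildtype replicate 1 (32510). The part of striatal cells in the levels of these genes was not tested. Of 16, 15 passed the filter on low values, and the remaining gene was Pvalb, the parvalbumin of mature basket cells, at 2.07 to 10.3 in wildtype. None of the 15 was called by limma or limma-voom, 6 had an unadjusted p under 0.05 (11.0% of all tested genes did), 13 lay above 0 and 2 below, and the median log2 fold change was 0.20. Groups did not overlap for 3, all higher (8.10% of all tested genes), Slc32a1, Ackr3 and Sst, of which Ackr3, a chemokine receptor of migrating interneurons, and Sst were named after their values were seen. Slc32a1, the vesicular GABA transporter, was at 2851, 3862 and 3439 in wildtype and at 4212, 4477 and 4103 in libraries labelled Zmiz1-KO (log2 fold change 0.34, adjusted p = 0.378, and 0.23 as the log2 fold change without wildtype replicate 1). Sst, the somatostatin of a main class of Lhx6 descendants, was at 4145 ± 131 and 4764 ± 175 (log2 fold change 0.20, adjusted p = 0.0598). Htr3a, a serotonin receptor of interneurons, had the largest value, 0.45, with an adjusted p of 0.835 and a wildtype range of 26.1 to 99.2. Without wildtype replicate 1 it was -0.15. The lowest were Kit, a receptor tyrosine kinase (-0.05, adjusted p = 0.778), and Cxcr4, a chemokine receptor (-0.03, adjusted p = 0.949), and Cxcr4 changed sign without any of 3 libraries in turn. Without wildtype replicate 2, 2 genes of the list passed the threshold, Gad1, which encodes a GABA-synthesizing enzyme, and Slc32a1.

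The genes whose profile over the 6 libraries was most like the mean of Dlx1, Dlx2, Dlx5, Dlx6 and Lhx6 were ranked by Pearson's r among 8009 genes, as a description with no test. The 8 with the highest r were Kcne1l (0.997), Adamtsl4 (0.994), Pnp2 (0.994), Cdh4 (0.991), Slc11a1 (0.990), Sox1 (0.987), Sema3b (0.986) and Wnt5b (0.984). Sox1, a SoxB1 factor that is expressed in the ventral forebrain, was at 628 in wildtype and 805 in libraries labelled Zmiz1-KO (log2 fold change 0.36, limma, adjusted p = 0.0793). None of the 8 passed the threshold with all libraries, and without wildtype replicate 2 the adjusted p was 0.0170 for Sox1 and 0.0310 for Cdh4, which encodes a cadherin. Pnp2 and Slc11a1 had means under 40 normalized counts in both groups. These 8 genes were picked as the highest of 8009 over 6 libraries that all genes share, and nothing further was read from r.

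Of the other cell types the dissection could hold, astrocytes gave summed levels of 46910 to 50621 in wildtype and 42573 to 49788 in libraries labelled Zmiz1-KO over 5 markers, of which Aqp4, the astrocyte water channel, was lower (log2 fold change -0.29, limma, adjusted p = 0.00499, but 0.0511 without Zmiz1-KO replicate 1 and 0.0818 without Zmiz1-KO replicate 3). A single gene made up most of these sums, and of the 5 log2 fold changes 2 lay above 0 and 3 below. Endothelial markers summed to 7049 to 7274 in wildtype and to 7037 to 7601 in libraries labelled Zmiz1-KO. Of these 6 markers 0 were called by limma and 1 had an unadjusted p under 0.05, beside 11.0% of all tested genes. The astrocyte ranges overlapped between groups, as did those of endothelial cells.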

How the data were processed

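RNA was measured by sequencing in 3 wildtype and 3 Zmiz1-KO labelled libraries from P7 cortex, made with Illumina's TruSeq kit v2 from extracted total RNA. The authors aligned reads to mm10 with STAR, normalized gene counts with DESeq2 in Illumina BaseSpace, and deposited the result as a signal table, called normalized counts in the text. Versions and the gene annotation are not given in the sources used here. Because a read's worth differs between genes of a library, whole reads were not recovered and no count test was run.

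Of 24972 genes, 15800 with at least 10 in at least 3 libraries were compared on log2(value + 1), so that fold changes of low genes are understated, with limma 3.58.1 (R 4.3.3, trend and robust, Benjamini-Hochberg, threshold 0.05, 95% intervals). P values set the difference between groups against the spread between these libraries, moderated over all tested genes. That spread may be technical. The procedure was tested on simulated data.

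The members and gene lists were chosen with earlier results of these data known. Named genes were the 8 members, Zmiz1, Emx1, opposite-strand genes whose exons cover part of the principal transcript of a member, and Dlx6os1. Also named were the called genes and the 2 highest and 2 lowest of the interneuron and related-gene lists, and the 8 most alike profiles. Of the other regulators, 1 is included in the counts but its values are not reported here. Of the marker lists, called genes, the highest 2 striatal ones and Slc17a7, as a check of the tissue, are named. Likeness used genes with an SD of log2 values of at least 0.1. Gene models came from GENCODE and promoter windows from RefSeq. Alternatives were other pseudocounts, filters, scalings, thresholds, limma-voom, a replicate block and each library left out. Figures used matplotlib 3.10.9.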

Additional observations from a re-analysis of the deposited data

How the results depend on the processing

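Over 15 alternatives for each of the 8 transcription factors (120 in all), every log2 fold change kept its sign, 117 kept their side of the threshold and 3 passed it, all for Lhx6 and Satb1. The deviations of same-numbered libraries correlated at -0.0051, -0.1127 and -0.0063, which gave no sign that the replicate numbers pair the libraries. Deviations from a mean of 3 libraries cannot exclude a shared litter or batch. A block for the replicate number let 2 of the 8 pass (Lhx6 at an adjusted p of 0.0462 and Satb1 at 0.00130), 4 of the 19 other regulators (Zeb2, Prox1, Tshz1 and Etv1, against 1) and 3 of the GABAergic genes (Gad1, Gad2 and Sst, against 0), as well as Sox1 (0.0327) and Cdh4 (0.0222). At an adjusted p of 0.1, 1 of the 8 passed (Satb1) and 1 GABAergic gene (Sst). Upper-quartile scaling also let 1 GABAergic gene pass (Sst). Leaving out each library gave 0 to 1 of the 8 (1 without wildtype replicate 3, Satb1), 0 to 2 other regulators (0 without Zmiz1-KO replicate 1 or 3, 2 without wildtype replicate 2) and 0 to 2 GABAergic genes (2 without wildtype replicate 2, 1 without Zmiz1-KO replicate 2). The count over all genes, 65 as reported, was 168 with the block, 17 without robust estimation, 106 at an adjusted p of 0.1 and 12 to 152 with a library left out. After the data were seen, 36 further named genes, all but Slc17a7, Pvalb and the genes below the filter, were put through the same alternatives. Emx1 and Rorb were not called without robust estimation. Over the libraries left out in turn, log2 fold changes ran from -0.065 to 0.54 for Maff, from -0.26 to 0.92 for Lhx8, from -0.15 to 0.79 for Htr3a and from -0.13 to 0.039 for Cxcr4, and no other of the 36 changed sign. Why these values moved was not tested. A difference within the spread of 3 libraries was not detectable.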
